A study of Mus musculus with 29 samples.

Results

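The response to lithium was examined in prefrontal cortex of male mice that carry 1 K228E allele of Tbr1. The groups are those of the labelled sex, genotype and drug: 4 libraries of heterozygous (HT) males given lithium were set against 3 libraries of HT males given vehicle. These 7 of the 29 libraries were taken at postnatal day 40 from mice of strain C57BL/6J. Both groups carry the allele, which lies in the gene of a T-box transcription factor of glutamatergic cortical neurons, so the comparison holds no lithium response of wild-type (WT) mice. How much lithium was given, how and for how long is not in the labels. Set beside these 7 are 3 HT lithium and 3 HT vehicle females, 4 HT fluoxetine males and 4 WT vehicle males, of the same strain and day. The labels give separate replicate numbers but not litters, so p-values measure the spread between samples. In the main fit that spread was pooled over the 8 groups of all 29 libraries.

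Lithium, a mood stabiliser, inhibits inositol monophosphatase, which recycles inositol for phosphoinositide signalling, and glycogen synthase kinase 3, which marks beta-catenin for breakdown. The endoplasmic reticulum folds secreted and membrane proteins with a set of chaperones, whose genes are turned on by the unfolded protein response through ATF6 and XBP1. Immediate early genes such as Fos are transcribed within minutes of neuronal firing, and in cortex they serve as readouts of recent activity.

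Depth was 26.03 M to 30.46 M reads per library in HT lithium males, against 23.35 M to 26.24 M in HT vehicle males. All values below are read counts per gene divided by a size factor per library, called normalised read counts, and log2 differences are of log2(value + 1), so they understate the change of genes with few reads. Xist was at 16.2 or less and Ddx3y at 1333 or more in these 7 libraries, as the label male requires. Transcripts of cortical excitatory neurons were abundant in all of them: Slc17a7, the vesicular glutamate transporter of cortex, lay between 43402 and 47980 in lithium males and between 39784 and 46732 in vehicle males. HT lithium males 1 and 3 stood apart in 21 markers of olfactory areas. Their list means (mean log2 value of the members, each centred on all 29 libraries) were -1.69 and -2.19, against 0.11 and 0.32 in HT lithium males 2 and 4 and 0.00 to 1.03 in vehicle males. Eomes, a marker of mitral and tufted cells, had 13, 264, 3.38 and 349 normalised read counts in HT lithium males 1 to 4, against 765, 361 and 239 in HT vehicle males 1 to 3. Of the 21 markers 20 were lower in lithium males, with a median log2 difference of -1.25, which was -0.26 without HT lithium males 1 and 3. Fewer cells of a type and less RNA per cell cannot be told apart in such tissue samples. The part of this difference in the results below was not tested, and values without both libraries stand beside several of the lists.

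No autosomal gene passed the test for lithium against vehicle in HT males (limma, Benjamini-Hochberg adjusted p under 0.05, 0% of 17269 genes). At an unadjusted p under 0.05 there were 1733 genes, 901 higher and 832 lower in lithium males, where 863 would be expected with no difference. The smallest adjusted p was 0.166. The quasi-likelihood test of edgeR on the recovered reads called 0 genes, and DESeq2 on the same reads called 17 higher and 5 lower genes. In 1033 genes (5.98% of 17269) all 4 lithium males lay above all 3 vehicle males, and in 941 genes (5.45%) they lay below. The smallest two-sided p that an exact permutation of 4 against 3 libraries allows is 0.0571. The results that follow are therefore levels in each library and counts of genes whose groups do not overlap, read against these shares.

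Among genes with an assigned name and a mean of at least 50 normalised read counts, the smallest p in the upward direction belonged to Nostrin (chr2:69135800-69189330, plus strand, GRCm38), which encodes an adaptor that binds endothelial nitric oxide synthase. Nostrin had 104, 124, 137 and 105 normalised read counts in HT lithium males, against 55.1, 77.9 and 57.2 in HT vehicle males. The groups did not overlap, and the fitted ratio was 1.85 (log2 difference 0.89 ± 0.161 SE, adjusted p 0.166 with limma). HT fluoxetine males averaged 103 ± 9.04 and WT vehicle males 71.9 ± 8.79 (SD, n = 4 each). In HT females the lithium libraries had 115, 103 and 110 against 117, 93.2 and 106 in vehicle libraries. Among the groups set side by side here, which hold no WT females, the low Nostrin values were those of vehicle males of both genotypes.

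The other 7 higher genes with the smallest p differed by 1.16-fold to 1.24-fold, and their adjusted p with limma was 0.287 in each case. Trappc13 (chr13:104142149-104178469), a subunit of a vesicle tethering complex, had 1183, 1133, 1131 and 1284 in lithium males, against 1014, 1028 and 1014 in vehicle males. Ccnd2 (chr6:127125162-127152193), the cyclin D2 gene, had 3277, 3171, 3137 and 3191 in lithium males, against 2487, 2490 and 2773 in vehicle males. In both genes the lithium libraries were all higher, and Ccnd2 also lay above all 4 HT fluoxetine males, which averaged 2820 ± 144 (SD, n = 4). The log2 difference between lithium and vehicle was 0.21 ± 0.0436 for Trappc13 and 0.31 ± 0.0672 for Ccnd2 (SE). Ccnd2 overlaps a gene on the opposite strand, and whether strand was used in counting is not given in the sources used here.

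A pair of genes of amino-terminal protein acetylation stood among these 7. Naa15 (chr3:51415148-51476507), the ribosome anchor of the NatA complex, had 1509, 1616, 1464 and 1498 in lithium males, against 1248, 1402 and 1216 in vehicle males. Naa50 (chr16:44139830-44163366), an acetyltransferase that binds that complex, had 1750, 1897, 1868 and 2022 in lithium males, against 1587, 1653 and 1437 in vehicle males. Neither gene overlapped between groups, with log2 differences of 0.24 ± 0.0556 and 0.27 ± 0.0624 (SE). WT vehicle males, however, averaged 1712 ± 106 for Naa50 (SD, n = 4), above the HT vehicle males.

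Fxr1 (chr3:34019943-34070322), an RNA-binding protein of the fragile X family, had 1540, 1641, 1711 and 1735 in lithium males, against 1492, 1460 and 1329 in vehicle males. Rbm34 (chr8:126947172-126971071), which encodes a protein with RNA recognition motifs, had 460, 441, 501 and 477 in lithium males, against 382, 369 and 395 in vehicle males. Neither gene's groups overlapped, and the log2 differences were 0.22 ± 0.0487 and 0.30 ± 0.068 (SE). Fxr1 overlaps Dnajc19 and a further gene model on the opposite strand. The eighth gene, Dnajc3, belongs to the chaperones of the endoplasmic reticulum described below.

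Of the 8 lower genes, Aldh1l1 (chr6:90486427-90600203), a folate enzyme that marks astrocytes, had the smallest p. It had 1573, 1517, 1719 and 1651 normalised read counts in lithium males, against 1812, 2067 and 1762 in vehicle males. No lithium male reached the lowest vehicle male (log2 difference -0.22 ± 0.0473 SE, adjusted p 0.287 with limma). Lithium females also lay below vehicle females, at 1798, 1747 and 1762 against 1898, 1827 and 1879. HT fluoxetine males averaged 1650 ± 41.6 and WT vehicle males 1617 ± 38.6 (SD, n = 4 each), close to the level of lithium males.

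Polr2a (chr11:69733997-69758637), the gene of the largest subunit of RNA polymerase II, had 3019, 3189, 3056 and 3014 in lithium males, against 3624, 3407 and 3579 in vehicle males. Its average was 3095 ± 143 in HT fluoxetine males and 3215 ± 164 in WT vehicle males (SD, n = 4 each). Both were nearer to lithium males than to HT vehicle males. Abcc10 (chr17:46303221-46328352), a multidrug resistance transporter, had 352, 333, 318 and 335 in lithium males, against 443, 394 and 397 in vehicle males. In both genes the lithium libraries lay below the vehicle libraries in males and in females. The log2 differences in males were -0.20 ± 0.0483 for Polr2a and -0.30 ± 0.0675 for Abcc10 (SE), and those in females were -0.13 and -0.24. Abcc10 was also below all 4 HT fluoxetine males, and it overlaps Dlk2 on the opposite strand.

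Endov (chr11:119491347-119511437), an inosine-specific endonuclease, had 989, 916, 1013 and 911 in lithium males, against 1073, 1158 and 1084 in vehicle males, a log2 difference of -0.21 ± 0.0505 (SE). Rps12 (chr10:23785183-23787275), a ribosomal protein gene with processed copies elsewhere in the genome that could share its reads, had 2882, 2390, 2560 and 2855 in lithium males, against 3141, 3341 and 3351 in vehicle males. Pcdhga2, a gamma-protocadherin whose last exons are shared with the rest of its cluster, had 324, 346, 436 and 376 in lithium males, against 521, 628 and 456 in vehicle males. Its averages of 329 ± 23.5 in HT fluoxetine males and 391 ± 27.8 in WT vehicle males (SD, n = 4 each) were also below every HT vehicle male. The lithium libraries were all below the vehicle libraries in these 3 genes, but the values of Rps12 and Pcdhga2 depend on how shared reads were divided. The last 2 lower genes, Fos and Ier2, are immediate early genes and are described with them.

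**Figure D1:**
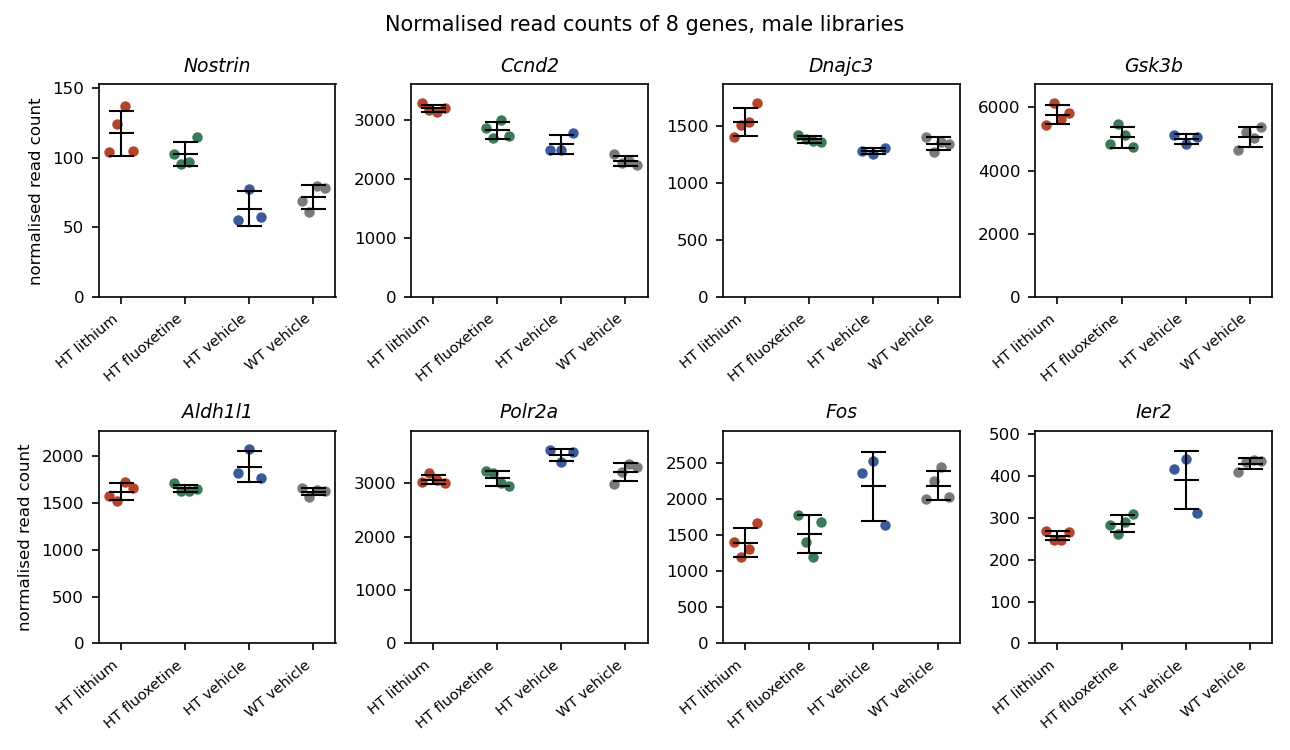
Normalised read counts (vertical axes, from 0) of 8 of the named genes in each HT lithium male, HT fluoxetine male, HT vehicle male and WT vehicle male library. Points are libraries, long bars are group means and whiskers span 1 SD either side. Nostrin was between 104 and 137 in HT lithium males, against 55.1 to 77.9 in HT vehicle males, and Fos between 1192 and 1663 in HT lithium males, against 1634 to 2524 in HT vehicle males.

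Transcripts of the inositol phosphatases that lithium inhibits differed little. Impa1, the main inositol monophosphatase, had 1745, 1664, 1776 and 1769 normalised read counts in lithium males, against 1558, 1732 and 1649 in vehicle males. Impa2, its less abundant relative, had 155, 162, 153 and 154 in lithium males, against 144, 154 and 151 in vehicle males. Inpp1, an inositol polyphosphate 1-phosphatase that lithium also inhibits, had 831, 899, 858 and 839 in lithium males, against 895, 844 and 857 in vehicle males. The groups overlapped in these 3 genes, and the log2 differences were 0.08 ± 0.049, 0.06 ± 0.11 and -0.02 ± 0.0603 (SE).

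Over 23 tested genes of inositol metabolism the median log2 difference was 0.045, against -0.0047 over all 17269 genes. In 3 of the 23 (13%, against 5.98% of all genes) all lithium males lay above all vehicle males, and in 0 below. Without HT lithium males 1 and 3 the median was 0.021. Slc5a3, the sodium-coupled inositol transporter, had 743, 743, 748 and 924 in lithium males, against 694, 589 and 719 in vehicle males. The other 2 were Ipmk, an inositol polyphosphate kinase, and Impad1, a relative of Impa1 in the Golgi, with log2 differences of 0.10 and 0.15. None of the 23 passed the test with limma, and the adjusted p of Slc5a3 was 0.414.

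Gsk3b (chr16:38089001-38246084), which encodes the beta form of glycogen synthase kinase 3, had 5445, 6150, 5625 and 5836 in lithium males, against 5127, 4831 and 5073 in vehicle males. The groups did not overlap (log2 difference 0.20 ± 0.0687 SE, adjusted p 0.37 with limma). HT fluoxetine males averaged 5048 ± 331 and WT vehicle males 5066 ± 317 (SD, n = 4 each), at the level of HT vehicle males. Gsk3a, the alpha form, overlapped between groups, with 6263, 6184, 6676 and 6119 in lithium males and 6151, 5845 and 6127 in vehicle males.

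Ctnnb1 and Axin2, genes of the pathway below the kinase, overlapped between groups as well. The kinase acts on beta-catenin protein, which read counts do not measure. Ctnnb1, the beta-catenin gene, had 14667, 14919, 14927 and 14451 in lithium males, against 14647, 15205 and 14480 in vehicle males, with a log2 difference of -0.0034 ± 0.0421 (SE). Axin2, a feedback gene switched on by beta-catenin, had 957, 873, 1019 and 930 in lithium males, against 1008, 834 and 899 in vehicle males. Of 32 tested genes of GSK3 and Wnt signalling, 3 lay above and 4 below the vehicle males without overlap. These are 9.38% and 12.5%, against 5.98% and 5.45% of all genes. The median over the 32 was -0.006. The smallest p among them was that of Lrp5, a Wnt co-receptor, with 412, 358, 352 and 387 in lithium males, against 495, 415 and 471 in vehicle males (log2 difference -0.29 ± 0.0813 SE). Nkd1, a Wnt antagonist, was also below, with a log2 difference of -0.16.

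Tbr1 itself (chr2:61802930-61814114) had 4606, 4617, 4738 and 4282 in lithium males, against 3730, 3822 and 4515 in HT vehicle males. The groups overlapped at HT vehicle male 3 (log2 difference 0.19 ± 0.128 SE, adjusted p 0.626 with limma). HT fluoxetine males averaged 4271 ± 135 and WT vehicle males 2579 ± 454 (SD, n = 4 each).

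The list with the largest share of higher genes was that of the chaperones and folding enzymes of the endoplasmic reticulum. All 22 tested members had a positive log2 difference, from 0.03 to 0.31 with a median of 0.162, and in 10 (45.5%, against 5.98% of all genes) every lithium male lay above every vehicle male. None passed the test with limma. The members share regulators and are not independent of each other, and the count is a description. Without HT lithium males 1 and 3 the median was 0.196, with 12 members above (11.5% of all genes in that setting). Without HT lithium male 4 it was 0.126, with 10 members above (8.61%).

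Hspa5 encodes BiP, the Hsp70 of the endoplasmic reticulum and its most studied stress gene. It had 5781, 6084, 6805 and 7465 normalised read counts in lithium males, against 5350, 5229 and 5697 in vehicle males. All lithium males were higher, from little above the vehicle males in library 1 to well above them in library 4 (log2 difference 0.26 ± 0.0684 SE, adjusted p 0.319 with limma). HT fluoxetine males averaged 6190 ± 298 (SD, n = 4). Dnajc3 (chr14:118937976-118981697), a co-chaperone of BiP that also inhibits the kinase PERK, had 1400, 1502, 1529 and 1700 in lithium males, against 1281, 1248 and 1303 in vehicle males. Its groups did not overlap, with a log2 difference of 0.26 ± 0.0597 (SE) and an adjusted p of 0.287.

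The disulphide-forming enzymes Pdia4, Pdia3 and Pdia6 lay above as well. Pdia4 had 840, 935, 951 and 1057 in lithium males, against 715, 726 and 837 in vehicle males. Pdia3, which works on glycoproteins with calnexin and calreticulin, had 4176, 4400, 4431 and 4503 in lithium males, against 3610, 3965 and 3850 in vehicle males. The gap was narrow in Pdia4, between HT lithium male 1 and HT vehicle male 3. The log2 differences were 0.31 ± 0.0807 for Pdia4, 0.20 ± 0.051 for Pdia3 and 0.19 ± 0.0561 for Pdia6 (SE). The lectin chaperones Canx (calnexin) and Calr (calreticulin) had log2 differences of 0.17 ± 0.0553 and 0.14 ± 0.0498, and Hsp90b1, the Hsp90 of this compartment, 0.15 ± 0.0588 (SE).

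Xbp1, whose spliced transcript encodes a factor of the unfolded protein response, had 1670, 1768, 1846 and 1968 in lithium males, against 1611, 1434 and 1616 in vehicle males. Manf, a secreted neurotrophic factor released on endoplasmic reticulum stress, had 855, 887, 906 and 1008 in lithium males, against 809, 789 and 790 in vehicle males. Both genes lay above without overlap, and HT lithium male 4 was the highest library in both, as it was in Hspa5 and Dnajc3. Counts per gene do not tell the spliced form of Xbp1 from the unspliced one. At the other end of the list P4hb, Syvn1 and Creld2 had log2 differences of 0.03, 0.04 and 0.06, and their groups overlapped.

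The 21 tested genes of the integrated stress response, the arm that runs through eIF2 alpha and ATF4, showed no such pattern. Their median log2 difference was 0.016, and in 0 of 21 were the groups separate in either direction. Atf4 had 3226, 3385, 3203 and 3368 in lithium males, against 2995, 3495 and 3060 in vehicle males. Ddit3, the CHOP gene, had 417, 336, 428 and 440 in lithium males, against 376, 378 and 379 in vehicle males. Both genes overlapped between groups.

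**Figure D2:**
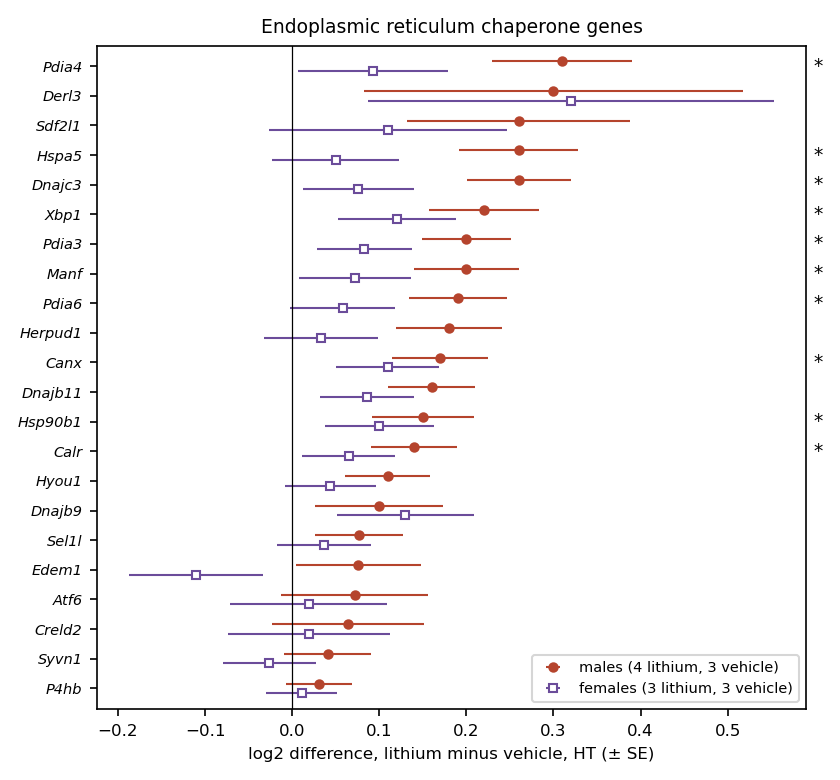
Log2 difference of lithium minus vehicle (horizontal axis, ± SE) for the 22 tested endoplasmic reticulum chaperone genes in HT males (filled) and HT females (open). A star at the right edge marks the 10 genes in which all HT lithium males lay above all HT vehicle males, and every male point lies right of 0.

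In females 20 of the 22 chaperone genes had a positive lithium difference, with a median of 0.068, and 4 lay above without overlap (4.85% of all genes did). Xbp1 and Canx were above in both sexes. The male difference was larger than the female one in 20 of 22 genes by a median log2 of 0.07, and 0 passed the test of that difference between sexes. The female vehicle libraries were already higher: the list mean was 0.09, 0.09 and 0.17 in HT lithium females and 0.01, 0.09 and 0.04 in HT vehicle females. It was -0.01, 0.01, 0.09 and 0.18 in HT lithium males, against -0.12, -0.12 and -0.05 in HT vehicle males. HT fluoxetine males had list means of -0.04 to 0.05, and WT vehicle males of -0.19 to -0.12.

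The promoters of this list were searched for the endoplasmic reticulum stress element, the site through which ATF6 acts with NF-Y, in the form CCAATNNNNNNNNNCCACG on both strands. Of the 19 members with a promoter entry in RefSeq (GRCm38.p6, 250 bases before to 50 after the start), 9 held it (47.4%), against 36 of 31396 autosomal promoters (0.115%). Of the 9 members with an entry whose male groups did not overlap 6 held it, and of the 10 whose groups overlapped 3 did. These 6 promoters are shown, since their genes are the ones that hold the element and lay above in all lithium males. Capitals mark the element, each is written in the direction of the gene, and Hsp90b1 holds 2. Calr and 1 of the 2 elements of Hsp90b1 carry it on the other strand. All distinct promoters of a gene count among the 31396, but only 1 per gene in the list. The list gathers genes of the unfolded protein response, so its high share does not bear on lithium. The split by overlap was not tested. A match is a run of letters and shows no binding.
Hspa5, chr2:34771840-34772139, plus strand: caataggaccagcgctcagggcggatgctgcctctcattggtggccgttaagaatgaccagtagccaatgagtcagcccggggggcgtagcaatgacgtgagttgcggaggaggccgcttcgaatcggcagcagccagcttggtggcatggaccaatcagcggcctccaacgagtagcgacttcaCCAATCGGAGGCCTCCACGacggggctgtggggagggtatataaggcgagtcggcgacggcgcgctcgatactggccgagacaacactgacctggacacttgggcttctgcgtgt
Dnajc3, chr14:118937682-118937981, plus strand: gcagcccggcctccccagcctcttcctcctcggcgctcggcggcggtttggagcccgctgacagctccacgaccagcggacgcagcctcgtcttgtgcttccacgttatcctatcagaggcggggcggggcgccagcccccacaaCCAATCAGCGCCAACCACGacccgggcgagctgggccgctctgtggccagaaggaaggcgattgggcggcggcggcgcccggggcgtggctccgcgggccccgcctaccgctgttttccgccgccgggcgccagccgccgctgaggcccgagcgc
Pdia6, chr12:17266339-17266638, plus strand: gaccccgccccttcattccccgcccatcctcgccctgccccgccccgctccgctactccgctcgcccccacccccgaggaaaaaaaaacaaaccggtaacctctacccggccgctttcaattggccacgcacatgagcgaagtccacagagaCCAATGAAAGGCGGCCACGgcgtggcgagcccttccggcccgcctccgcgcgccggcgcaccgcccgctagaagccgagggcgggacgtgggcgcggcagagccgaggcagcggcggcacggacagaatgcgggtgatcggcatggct
Canx, chr11:50325624-50325923, minus strand: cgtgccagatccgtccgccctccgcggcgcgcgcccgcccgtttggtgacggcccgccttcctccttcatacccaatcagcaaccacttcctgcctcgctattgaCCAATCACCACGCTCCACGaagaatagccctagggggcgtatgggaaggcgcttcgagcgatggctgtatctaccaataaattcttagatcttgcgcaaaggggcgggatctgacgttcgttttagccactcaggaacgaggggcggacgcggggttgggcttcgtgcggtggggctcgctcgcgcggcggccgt
Calr, chr8:84846882-84847181, minus strand: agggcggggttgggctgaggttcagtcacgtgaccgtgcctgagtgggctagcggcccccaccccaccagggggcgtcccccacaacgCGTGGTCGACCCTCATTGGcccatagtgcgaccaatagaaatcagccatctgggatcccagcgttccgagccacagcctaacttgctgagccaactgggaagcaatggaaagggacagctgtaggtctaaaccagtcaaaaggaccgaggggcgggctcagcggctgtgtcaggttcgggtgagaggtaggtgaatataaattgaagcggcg
Hsp90b1, chr10:86705395-86705694, minus strand: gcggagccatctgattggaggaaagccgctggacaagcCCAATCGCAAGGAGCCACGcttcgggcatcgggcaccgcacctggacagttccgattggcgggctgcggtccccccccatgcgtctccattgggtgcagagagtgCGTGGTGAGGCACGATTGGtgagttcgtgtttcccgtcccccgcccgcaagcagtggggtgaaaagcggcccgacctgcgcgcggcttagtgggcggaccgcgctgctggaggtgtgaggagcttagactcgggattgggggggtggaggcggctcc

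Heat shock chaperones, most of them of the cytosol and nucleus and targets of the heat shock factor HSF1, were also higher. The list also holds the mitochondrial chaperonins Hspd1 and Hspe1. Of 21 tested genes 19 had a positive log2 difference, the median was 0.126, and 8 (38.1%, against 5.98% of all genes) lay above without overlap. None passed the test with limma. Chordc1, a co-chaperone of Hsp90, had 1672, 1874, 1830 and 1995 normalised read counts in lithium males, against 1578, 1667 and 1566 in vehicle males. Dnaja1, an Hsp40, had 8337, 8513, 8612 and 9064 in lithium males, against 7392, 7916 and 7904 in vehicle males. In both genes all lithium males were higher, with log2 differences of 0.20 ± 0.0613 and 0.16 ± 0.0489 (SE). The list mean was -0.02, -0.02, 0.02 and 0.16 in HT lithium males 1 to 4, against -0.1, -0.1 and -0.03 in HT vehicle males 1 to 3. HT lithium male 4 thus stood highest, and the other lithium males lay near HT vehicle male 3.

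Hsph1, the Hsp110 that recycles Hsp70, had 8124, 8133, 8646 and 8898 in lithium males, against 7238, 7133 and 7975 in vehicle males. Hsp90aa1, the inducible Hsp90, had 27109, 28072, 27794 and 29209 in lithium males, against 24672, 26344 and 26112 in vehicle males. All lithium males were higher in both genes, with log2 differences of 0.18 ± 0.0655 and 0.13 ± 0.0511 (SE). The most inducible member, Hspa1a, had a log2 difference of -0.04, and Hsf1 had -0.07. In females 15 of 21 were positive with a median of 0.064, and Dnaja1, Hsp90aa1 and Hspa4l lay above in both sexes. Against fluoxetine males the list median was -0.006, with 1 of 21 above.

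The heat shock element was searched on both strands as the units GAA, TTC and GAA with 2 free bases between neighbours. It stood in 3 of the 16 promoters of this list that RefSeq holds (18.8%), against 194 of 31396 (0.618%): Chordc1, Hsph1 and Hspe1. The 2 of them whose groups did not overlap are shown, with the elements in capitals, and in Chordc1 3 matches overlap each other. None of the 19 promoters of the endoplasmic reticulum list held this element, and 0 of the 16 here held the stress element above. As above, only the list is limited to a single promoter per gene, and a list of HSF1 targets favours this element.
Chordc1, chr9:18292017-18292316, plus strand: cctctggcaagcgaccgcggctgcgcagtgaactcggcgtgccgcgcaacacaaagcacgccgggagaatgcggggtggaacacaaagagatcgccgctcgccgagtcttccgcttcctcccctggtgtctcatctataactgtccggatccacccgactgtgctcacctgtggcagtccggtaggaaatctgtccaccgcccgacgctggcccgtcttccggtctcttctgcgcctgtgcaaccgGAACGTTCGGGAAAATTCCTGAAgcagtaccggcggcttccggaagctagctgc
Hsph1, chr5:149636287-149636586, minus strand: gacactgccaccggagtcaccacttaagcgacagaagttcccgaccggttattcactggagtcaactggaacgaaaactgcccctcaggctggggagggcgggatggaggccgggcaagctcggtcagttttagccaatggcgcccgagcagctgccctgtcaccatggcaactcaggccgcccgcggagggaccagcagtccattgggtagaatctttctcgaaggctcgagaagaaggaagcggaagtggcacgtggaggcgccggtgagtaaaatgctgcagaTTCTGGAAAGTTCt

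Immediate early genes had shares of members without overlap near those of all genes, but the share below depended on single libraries, as given further on. With limma, 15 of the 37 tested members had an unadjusted p under 0.05, in either direction, against 1733 of all 17269 genes. Of 37 tested members 24 had a negative log2 difference, and the median was -0.113. The groups did not overlap in 3 lower members, Ier2, Ccn1 and Nr4a1 (8.11%, against 5.45% of all genes), and in 2 higher ones, Homer1 and Klf10 (5.41%, against 5.98%). No member passed the test with limma. Members of this list follow neuronal activity together and are not independent of each other.

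Fos (chr12:85473890-85477273), a subunit of the AP-1 factor, had 1398, 1192, 1307 and 1663 normalised read counts in lithium males, against 2360, 2524 and 1634 in vehicle males. HT vehicle male 3 lay within the range of the lithium males, so the groups overlapped (log2 difference -0.63 ± 0.15 SE, adjusted p 0.29 with limma). Ier2 (chr8:84661331-84662852), an early gene of growth factor signalling, had 268, 247, 248 and 267 in lithium males, against 417, 441 and 311 in vehicle males. All lithium males were lower, with a log2 difference of -0.58 ± 0.142 (SE). HT fluoxetine males were lower than vehicle males on average too, at 1511 ± 267 for Fos and 286 ± 19.5 for Ier2 (SD, n = 4), and WT vehicle males were at 2180 ± 202 and 429 ± 13.1.

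Nr4a1, an orphan nuclear receptor induced by firing, had 3891, 3627, 4086 and 4683 in lithium males, against 6652, 6233 and 4690 in vehicle males. The groups did not overlap, though HT lithium male 4 and HT vehicle male 3 came close, and the log2 difference was -0.52 ± 0.153 (SE). Fosb had 641, 784, 618 and 1031 in lithium males, against 1574, 1396 and 1019 in vehicle males. Ccn1, a secreted matrix protein, had 179, 176, 130 and 155 in lithium males, against 247, 413 and 238 in vehicle males. Fosb overlapped between the same pair of libraries, and Ccn1 did not overlap (log2 differences -0.80 ± 0.214 and -0.86 ± 0.243 SE, adjusted p 0.336 and 0.35 with limma).

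Npas4, a factor that answers calcium influx, had 704, 827, 934 and 1220 in lithium males, against 1944, 1814 and 990 in vehicle males. Egr1, the most abundant of these factors, had 10444, 9338, 11552 and 12410 in lithium males, against 12300, 12720 and 10658 in vehicle males. HT lithium male 4 was the highest and HT vehicle male 3 the lowest of its group in both genes. The same held for the list mean, which was -0.09, -0.18, -0.12 and 0.10 in lithium males 1 to 4, against 0.14, 0.24 and -0.03 in vehicle males 1 to 3. Without HT lithium male 4 there were 17 members below (8.61% of all genes in that setting), and without HT vehicle male 3 there were 15 (12.6%). With both marker means, olfactory and striatal, in the model the list median was -0.024, and without HT lithium males 1 and 3 it was -0.048.

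Homer1, whose short form is induced by activity and uncouples metabotropic glutamate receptors, had 5763, 5743, 6640 and 6474 in lithium males, against 4794, 5183 and 5014 in vehicle males. It went the other way from Fos, without overlap (log2 difference 0.30 ± 0.0735 SE, adjusted p 0.305 with limma), and counts per gene do not separate its short from its long forms. Bdnf, a neurotrophin, had 946, 840, 1100 and 964 in lithium males, against 739, 930 and 876 in vehicle males, with overlap. The cyclic AMP response element TGACGTCA stood in 3 of the 28 immediate early promoters searched (10.7%), those of Btg2, Dusp1 and Plk2, and in 574 of 31396 autosomal promoters (1.83%). Only the list was limited to a single promoter per gene here as well.

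**Figure D3:**
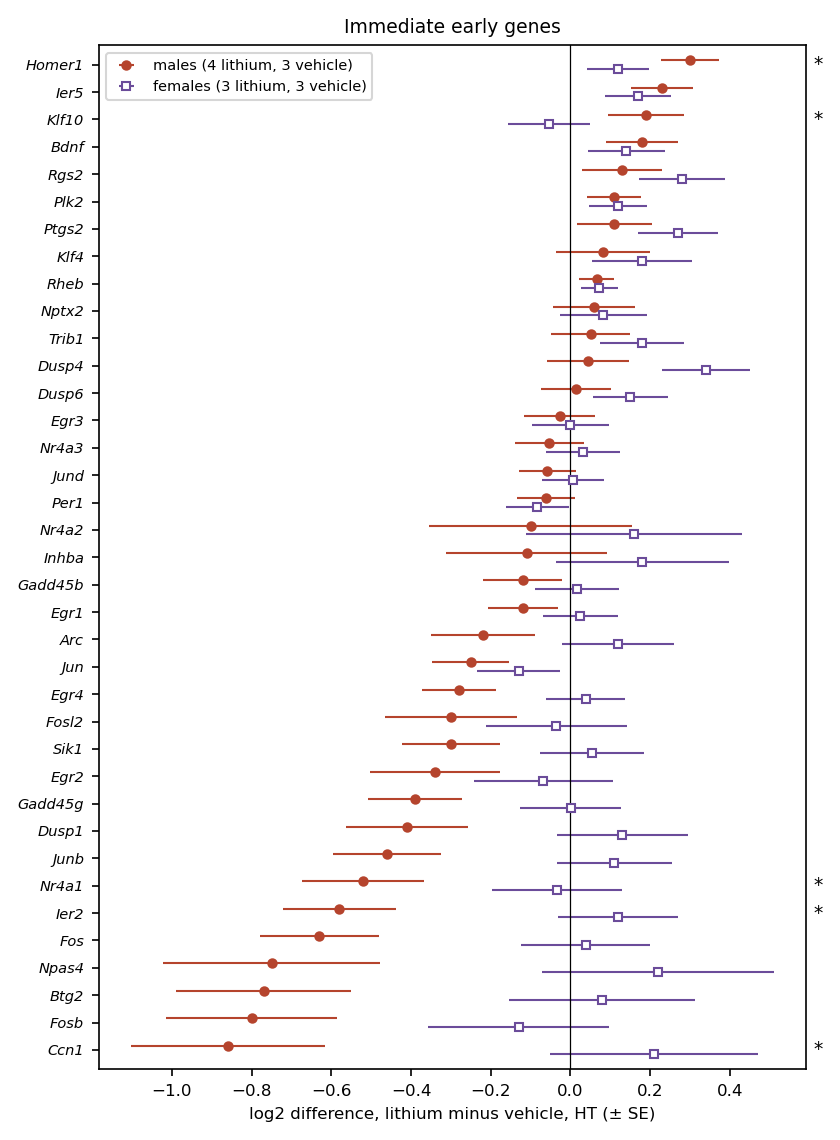
Log2 difference of lithium minus vehicle (horizontal axis, ± SE) for the 37 tested immediate early genes in HT males (filled) and HT females (open). A star at the right edge marks genes in which the HT lithium and HT vehicle males do not overlap, and 24 male points lie left of 0, against 8 female points.

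In females the same genes did not lie lower. The median was 0.083, with 29 of 37 positive, 7 above without overlap and 0 below (background 4.85% and 4.81%). Fos had 1665, 1555 and 1410 in lithium females, against 1347, 1580 and 1583 in vehicle females. Ccn1 lay above in females, at 193, 213 and 190 in lithium libraries against 184, 158 and 174 in vehicle libraries, and below in males. The male difference was below the female one in 32 of 37 genes, with a median of -0.16 on the log2 scale. Of these 37 tests of the difference between sexes 11 had an unadjusted p under 0.05 and 0 passed adjustment, the smallest adjusted p being 0.9997 with limma, so a difference between the sexes was not established gene by gene.

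Clock genes were partly higher. Of 22 tested members 16 had a positive log2 difference, with a median of 0.052, and 5 lay above without overlap (22.7%, against 5.98% of all genes), though none passed the test. Per2, a repressor in the circadian loop, had 1593, 1832, 1706 and 1803 normalised read counts in lithium males, against 1315, 1270 and 1497 in vehicle males (log2 difference 0.35 ± 0.103 SE, adjusted p 0.35 with limma). Bhlhe40, a repressor of clock output, had 4353, 4127, 4370 and 4528 in lithium males, against 3723, 3282 and 4104 in vehicle males. Hlf, Tef and Nr1d2 made up the rest, with log2 differences of 0.21, 0.11 and 0.12. In females 0 of the 22 lay above and the median was -0.005. The labels give no time of day of tissue collection, and it cannot be told apart from the groups.

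Targets of glucocorticoids were mixed. Zbtb16, a zinc-finger repressor induced by corticosterone, had 1300, 1104, 1103 and 1145 in lithium males, against 918, 731 and 949 in vehicle males, a log2 difference of 0.43 ± 0.134 (SE). It was also above all HT fluoxetine males, which averaged 816 ± 88.1 (SD, n = 4). Fkbp5, a chaperone of the receptor, had 1194, 1216, 897 and 1217 in lithium males, against 744, 800 and 981 in vehicle males, with overlap at HT lithium male 3. Ddit4, an inhibitor of mTORC1 that the hormone also induces, went the other way, with 1268, 1292, 1139 and 1180 in lithium males, against 1315, 1411 and 1527 in vehicle males. Over 17 members the median was -0.008, with 2 above (Zbtb16 and Klf9) and 1 below, and it was 0.03 without HT lithium males 1 and 3. Those counts are 11.8% and 5.88% of the list, against 5.98% and 5.45% of all genes.

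Genes of cholesterol synthesis had a median log2 difference of 0.091, with 18 of 24 positive. Of these, 5 lay above without overlap (20.8% of the list, against 5.98% of all genes). They included Msmo1, Sc5d, Fdps and Cyp51, enzymes of the pathway. Msmo1, a sterol demethylase, had 1793, 1831, 1825 and 1647 in lithium males, against 1407, 1636 and 1520 in vehicle males. With the list means of olfactory and of striatal markers added as covariates the median was 0.008 and 12 of 24 were positive, and in females it was -0.017.

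In glycolysis single genes lay apart in both directions, 5 above and 3 below of 22 (22.7% and 13.6%), around a median of 0.016. Of all genes 5.98% lay above and 5.45% below. Pfkfb3, which makes the activator of phosphofructokinase, had 1284, 1285, 1277 and 1227 in lithium males, against 1058, 997 and 1151 in vehicle males, and was above in females as well. Slc2a1, the glucose transporter of vessels and glia, had 3684, 3905, 3257 and 3300 in lithium males, against 2477, 2952 and 3161 in vehicle males. Ldha was above and Ldhb below, with 11637, 11102, 11352 and 12367 for Ldhb in lithium males, against 12899, 13222 and 12626 in vehicle males. The log2 differences were 0.25 ± 0.0706 for Pfkfb3, 0.31 ± 0.106 for Slc2a1, 0.17 ± 0.0816 for Ldha and -0.15 ± 0.0566 for Ldhb (SE).

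Subunits of the respiratory chain encoded in the nucleus did not lie apart, with 1 above and 1 below of 71 and a median of -0.006. Without HT vehicle male 1 there were 14 below (8.45% of all genes in that setting) and without HT vehicle male 2 there were 15 above (11.1%), so these counts rested on single vehicle libraries. Cytosolic ribosomal proteins had a median of -0.044, with 54 of 75 negative, 2 above and 7 below (2.67% and 9.33%). Leaving out HT vehicle male 2 brought that median to 0.008. Of 31 proteasome subunits 24 were positive, with a median of 0.045, 2 above and 1 below (6.45% and 3.23%). With all libraries, 5.98% of all genes lay above and 5.45% below.

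Among vessel genes Rgs5, a regulator of G-protein signalling in pericytes, had 2967, 3361, 3118 and 2944 in lithium males, against 2466, 2433 and 2433 in vehicle males (log2 difference 0.34 ± 0.09 SE, adjusted p 0.336 with limma). Together with Slc2a1 it was 1 of 2 endothelial and mural genes above, of 22 (9.09%, against 5.98% of all genes). The list median was 0.039, and 0.012 without HT lithium males 1 and 3. WT vehicle males averaged 2755 ± 206 and HT fluoxetine males 2773 ± 296 for Rgs5 (SD, n = 4), between the HT lithium and the HT vehicle males. Of 16 astrocyte genes 4 lay below (25%, against 5.45% of all genes) and 1 above, with a median of -0.030. Beside Aldh1l1 these were Ntsr2, Acsbg1 and Gfap. Ntsr2, a neurotensin receptor of astrocytes, had 2343, 2360, 2415 and 2242 in lithium males, against 2528, 2625 and 2580 in vehicle males, and it was below in females too. Gfap, the filament of reactive astrocytes, had 3332, 3448, 2617 and 3398 in lithium males, against 4219, 4004 and 3596 in vehicle males.

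Microglia, myelin and oligodendrocyte precursor lists had medians between -0.031 and 0.067, with at most 1 gene above and 1 below in each. The myelin median of 0.067 rested on single libraries: it was -0.107 without HT vehicle male 1, 0.204 without HT vehicle male 3 and 0.173 without HT lithium males 1 and 3. The microglial median was -0.001 with all libraries and -0.072 without those 2 lithium males. The microglial gene above was Tmem119, with 501, 523, 593 and 525 in lithium males, against 465, 449 and 457 in vehicle males. Among cortical neurons Neurod6, a factor of excitatory neurons, had 2471, 2405, 2983 and 2385 in lithium males, against 1872, 1865 and 2152 in vehicle males. It was the single gene above of 8 excitatory markers, 7 of which were positive with a median of 0.156. That median was 0.097 without HT lithium males 1 and 3, with 6 positive, and 0.021 with both marker covariates, with 5 positive. Tbr1 is a member of that list.

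Synaptic lists lay close to the background. The shares over all genes were 5.98% above and 5.45% below. Of 33 glutamate receptor and postsynaptic genes 3 were above and 3 below (9.09% each). Of 32 presynaptic genes 3 were above and 1 below (9.38% and 3.12%). Of 42 potassium channel genes 4 were above and 1 below (9.52% and 2.38%). Syt4, a synaptotagmin of dense-core vesicles, had 4929, 4925, 5196 and 4890 in lithium males, against 4283, 4230 and 4106 in vehicle males. Grm2, an inhibitory presynaptic glutamate receptor, had 1993, 2077, 2084 and 2246 in lithium males, against 3329, 2482 and 2435 in vehicle males. Grm5, which couples to phosphoinositide turnover, had 5585, 5663, 5770 and 5339 in lithium males, against 4777, 4815 and 5108 in vehicle males. The log2 differences were 0.24 ± 0.0725, -0.37 ± 0.161 and 0.19 ± 0.0862 (SE), and none passed the test. Of 18 genes of inhibitory synapses 2 were above and 0 below (11.1% and 0%).

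**Figure D4:**
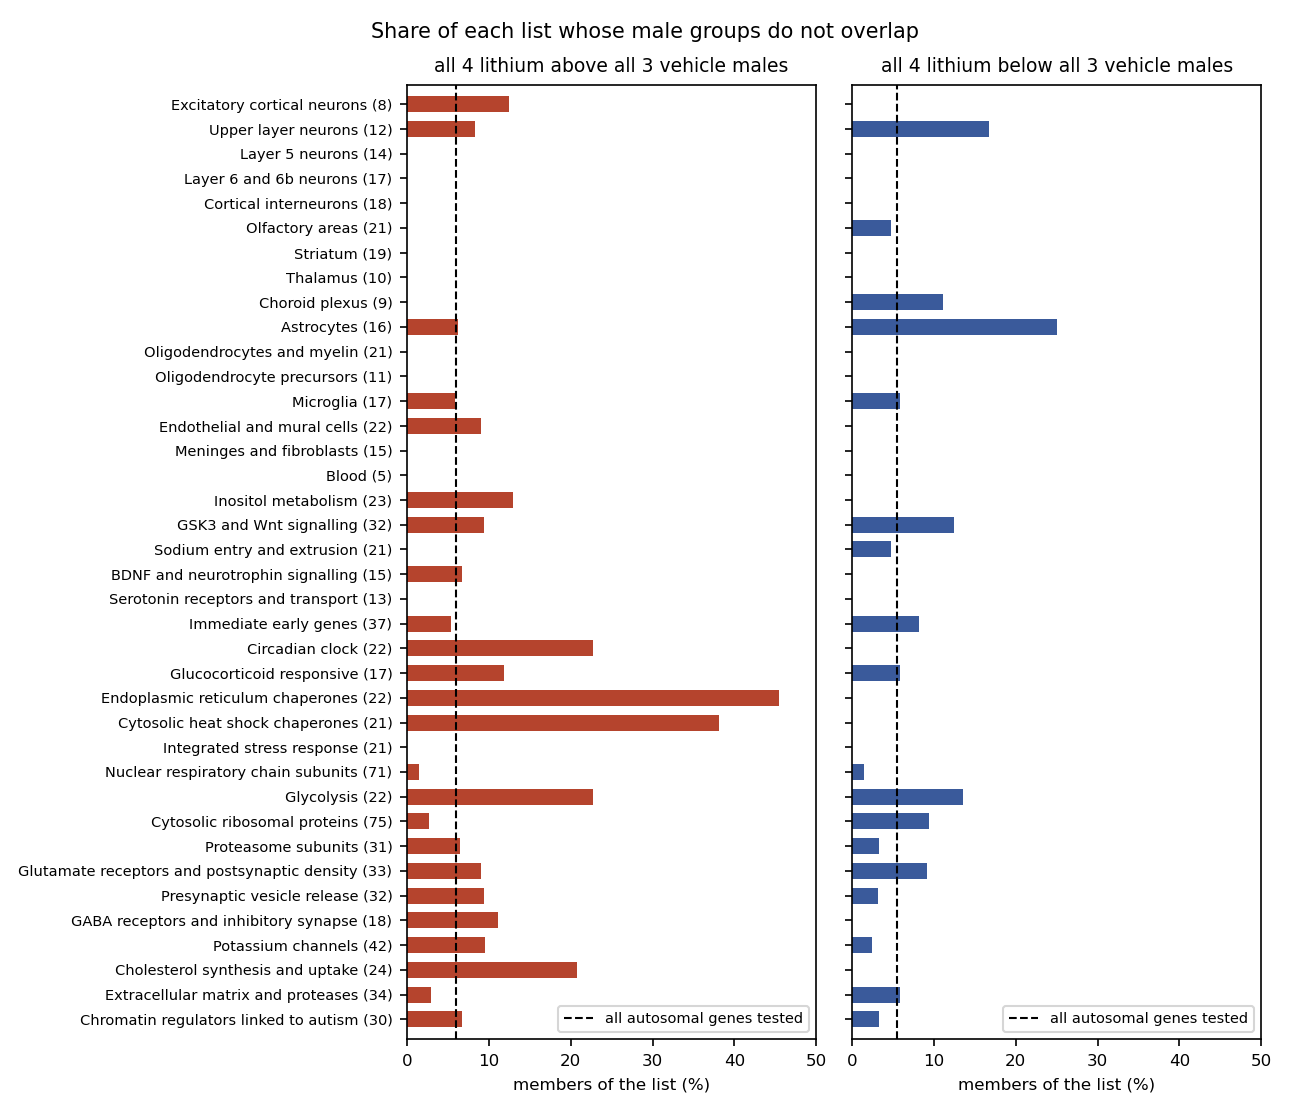
Share of the tested members of each of 38 gene lists in which all HT lithium males lay above (left panel) or below (right panel) all HT vehicle males, in percent, with the number tested in parentheses. Dashed lines give the shares over all 17269 autosomal genes, 5.98% above and 5.45% below, and endoplasmic reticulum chaperones (45.5%) and cytosolic heat shock chaperones (38.1%) had the largest shares above.

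**Figure D5:**
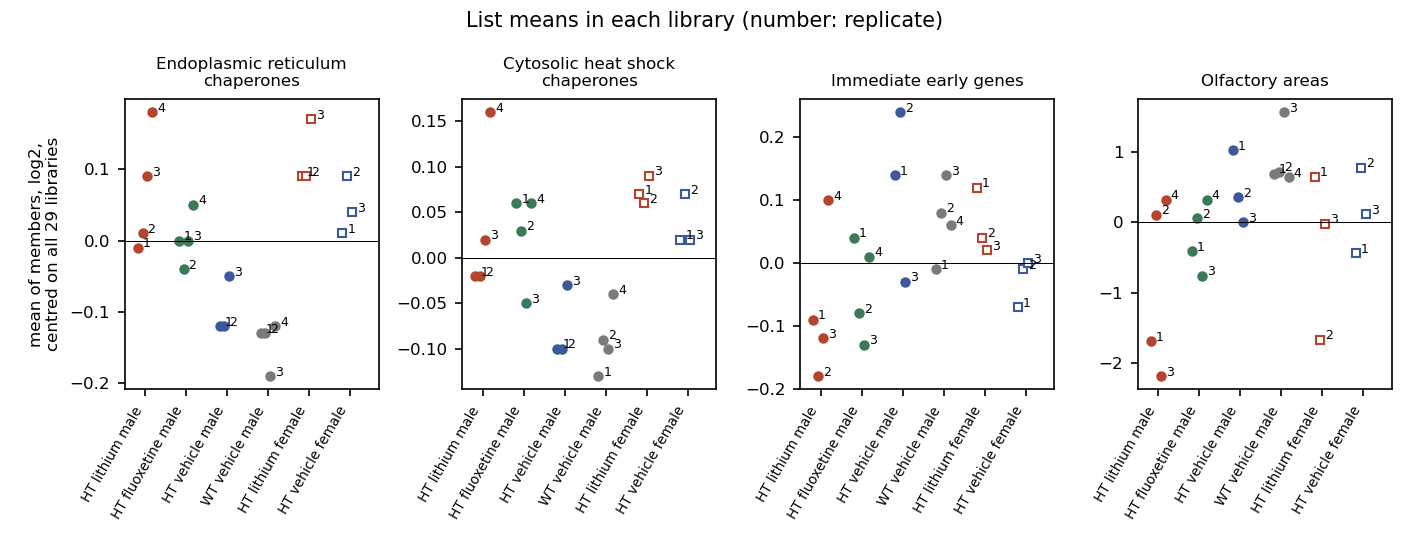
Mean log2 value of the members of 4 gene lists, centred on all 29 libraries (vertical axes), in each library of HT lithium, HT fluoxetine, HT vehicle and WT vehicle males (filled) and of HT lithium and HT vehicle females (open). Numbers are replicates; the endoplasmic reticulum chaperone mean lies between -0.01 and 0.18 in HT lithium males, against -0.12 to -0.05 in HT vehicle males, and the olfactory mean is lowest in HT lithium males 1 and 3.

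The female comparison shares no library with the male one. No gene passed in females with limma (0% of 17269), and edgeR and DESeq2 called 0. At an unadjusted p under 0.05 there were 744 genes, where 863 would be expected with no difference. Without overlap 837 genes lay above and 830 below (4.85% and 4.81%). The smallest two-sided p of an exact permutation is 0.1 for 3 against 3 libraries and 0.0571 for 4 against 3. Separation with no difference is thus more frequent in females, and the shares of the sexes are not like for like. Across genes the male and female log2 differences had a Pearson r of 0.16 and a Spearman rho of 0.24, as a description, since genes are not independent. Of the 1033 genes above in males 80.9% had a positive female difference, against 49.4% of all genes, with a median log2 of 0.06. Of the 941 genes below in males 71.2% had a negative female difference, against 50.6% of all genes, with a median of -0.06. Above in both sexes were 134 genes, 13% of those in males and 16% of those in females, and below in both were 81 genes, 8.61% and 9.76%. The male groups are thus apart in many genes that lean the same way in females by a small amount. Olfactory markers differed in females too: list means were 0.65, -1.67 and -0.02 in lithium and -0.44, 0.78 and 0.12 in vehicle females. Of 21 markers 19 were lower in lithium females, with a median log2 difference of -0.427. HT lithium female 2 also had a striatal mean of 1.03, against -0.56 and -0.54 in HT lithium females 1 and 3. The part of these tissue markers in the agreement between sexes was not tested.

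The female genes with the smallest p, Map10, Rcsd1, Foxj3, Ncf1 and Mgat4c, had adjusted p of 0.996 with limma. Rcsd1, a regulator of actin capping, had 207, 225 and 244 in lithium females, against 164, 148 and 173 in vehicle females, while the male libraries had 188, 192, 186 and 199 with lithium and 181, 186 and 124 with vehicle. Map10, a microtubule-associated protein, had 96, 84.8 and 88.2 in lithium females, against 66.9, 65.4 and 54.4 in vehicle females, while the male libraries overlapped. The test of the male minus the female lithium difference called no gene (0% of 17269, smallest adjusted p 0.9997 with limma, 0 by edgeR and by DESeq2). At an unadjusted p under 0.05 there were 511 genes, where 863 would be expected with no difference.

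The genes with the smallest p for that difference had fitted lithium differences of opposite sign in males and females. Msln, the mesothelin gene, had 52.9, 57.2, 67.6 and 63.1 in lithium males, against 45.5, 34.2 and 35.5 in vehicle males. In females it had 36.7, 59.3 and 29.7 in lithium libraries, against 61, 58.6 and 57.7 in vehicle libraries. The difference between sexes was 1.19 ± 0.326 on the log2 scale (SE). Ncf1, a subunit of the phagocyte oxidase, had 168, 213, 176 and 166 in lithium males, against 216, 199 and 187 in vehicle males. In females it had 223, 206 and 201 in lithium libraries, against 160, 153 and 164 in vehicle libraries, where the groups did not overlap (difference between sexes -0.55 ± 0.153 SE). Acad10, Sft2d2 and the pseudogene Trmt112-ps2 followed, with 0.66 ± 0.186, -0.38 ± 0.108 and 1.86 ± 0.522 (SE), and the reads of Trmt112-ps2 may come from its parent gene.

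Lithium and fluoxetine males were compared directly, which leaves the 3 vehicle males out. This test called 1 gene, lower in lithium males (0.00579% of 17269), with 1405 genes at an unadjusted p under 0.05. In 391 genes the lithium males lay above all fluoxetine males (2.26%) and in 505 below (2.92%). The gene called was Ndufa2, a subunit of respiratory complex I. It had 890, 843, 984 and 894 normalised read counts in lithium males, against 1297, 1168, 1204 and 1165 in fluoxetine males. Ndufa2 was lower in lithium males without overlap (log2 difference -0.42 ± 0.0702 SE, adjusted p 0.0446 with limma). HT vehicle males had 893, 1006 and 1023, so lithium and vehicle males overlapped. The call was lost without HT lithium male 1, 2 or 4 and without any 1 of the fluoxetine males. It was also lost when only both groups were fitted, with the replicate block, with no intensity trend and with the marker covariates, while edgeR called the gene, and Ndufa2 overlaps Tmco6 on the opposite strand.

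The other 4 genes with the smallest p were also lower in lithium males. Atox1, a copper chaperone, had 389, 341, 391 and 322 in lithium males, against 431, 465, 487 and 575 in fluoxetine males. Rps10 had 2394, 2223, 2387 and 2453 in lithium males, against 2857, 2768, 2835 and 2980 in fluoxetine males. Nme3, a nucleoside diphosphate kinase, had 290, 307, 308 and 307 in lithium males, against 377, 377, 367 and 362 in fluoxetine males. The groups did not overlap in these 3 genes, and the adjusted p was 0.0917 with limma in each and in Rpl27a. Of 75 ribosomal proteins all 75 were lower in lithium than in fluoxetine males, with a median log2 difference of -0.174 and 33 below without overlap. Of 71 respiratory chain subunits 70 were lower, with a median of -0.146 and 32 below. In this comparison 2.92% of all genes lay below.

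The difference between lithium and fluoxetine males went with exon length, the bases covered by all annotated exons of a gene. The median log2 difference was -0.059 in the shortest of 4 length classes and 0.05 in the longest, against -0.022 and 0.002 for lithium minus vehicle in males. The fluoxetine males also held more of the striatal markers, with list means of 1.35, 1.83, -0.37 and 0.44, against -0.47, 0.46, -0.55 and -0.32 in lithium males. The part of exon length and of striatal tissue in the ribosomal and respiratory difference was not tested. For the endoplasmic reticulum chaperones the median of lithium minus fluoxetine was 0.068, with 1 of 22 above, and for the immediate early genes 0.001.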

How the data were processed

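The authors deposited a normalised signal per gene and library. The values show what it is: a read count over a size factor that is constant within a library, since 100% of values came out as whole reads (tolerance 0.0001). Salmon 0.11.2, R 3.6.0, DESeq2 1.19.11 and GRCm38 appear in the submitters' processing notes without a role, and the annotation release and strand setting are not given in the sources used here. Poly(A) RNA was sequenced with a stranded kit, per the labels' protocols, and all libraries carry the same batch label. Names and coordinates came from a GRCm38 annotation, which matched 18227 of 18240 identifiers. Over all 29 libraries the recovered depth was 22.81 M to 31.71 M reads, so genes with few reads are measured less precisely.

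To be tested, a gene needed 10 or more normalised counts in 3 or more libraries. This kept 17881 genes, 17269 of them autosomal. Log2(value + 1) was fitted with limma 3.58.1 in R 4.3.3, using an intensity trend and a mean for each of the 8 groups (21 residual degrees of freedom). The contrasts were lithium minus vehicle in HT males and in HT females, the male minus the female difference, and lithium minus fluoxetine in HT males. P-values are two-sided and were adjusted by Benjamini and Hochberg's method across every tested gene, with calls at 0.05, and counts are of autosomal genes. The fits were tested on simulated data. Alternatives were count tests on the recovered reads (edgeR 4.0.16, DESeq2 1.42.0), other normalisations, filters, pseudocounts, moderation, covariates and thresholds, the replicate number as a block, and leaving out libraries.

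The comparison, the 38 gene lists and the naming rule were chosen with earlier results of these data known. The rule named the 8 genes per direction with the smallest p, among named autosomal genes with a mean of at least 50. It also named 5 for each other contrast, up to 4 members of each list, Tbr1 and 7 genes of lithium targets and their pathways. Further list members were named after their values were seen, because their groups did not overlap or as landmarks of the list. Promoters came from RefSeq (GRCm38.p6). Some list members are not reported here.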

Additional observations from a re-analysis of the deposited data

Results flagged for a closer look

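Named genes and list means were screened in the 4 HT lithium males. A library was flagged if its gap to its nearest neighbour exceeded the 95% critical value of Dixon (0.829 of the range). Of 62 such sets of 4 values 2 gave a flag, both of them list means, and chance gives about 1 in 20. The mean of the astrocyte list was -0.1 in HT lithium male 2, against -0.06, -0.07 and -0.06 in HT lithium males 1, 3 and 4, a gap of 0.83 of the range. The mean of the list of GABA receptors and inhibitory synapse was -0.03 in HT lithium male 1, against 0.03, 0.04 and 0.03 in HT lithium males 2 to 4, a gap of 0.856 of the range. Both departures are small on the log2 scale.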

How the results depend on the processing

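The count of 0 genes called in HT males held under most alternatives run. It was 1 when only the groups compared were fitted (Gm9531), 22 with DESeq2, and between 0 and 1 when single libraries were left out; the 1 arose without HT lithium male 2 and was Peg12. The count for the difference between the sexes was 1 when only the groups compared were fitted (Gm49686) and 0 otherwise. The count of 1 for lithium against fluoxetine males was 0 when only the groups compared were fitted, 0 with the replicate block, 0 with no intensity trend, 0 with the olfactory and striatal means as covariates and 0 without HT lithium males 1 and 3, which was chosen after seeing the data. It was 41 with DESeq2, 10 at a threshold of 0.1, and between 0 and 1 with single libraries left out. The cause was not tested. In HT males the replicate block gave 0 calls and 1554 genes at an unadjusted p under 0.05. Same-numbered lithium and vehicle males correlated at -0.0573, 0.0641 and 0.199 over 13341 genes. Pairs of unlike number ranged from -0.202 to 0.281, so these values do not settle whether the numbers pair the libraries.

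Of 836 list medians under an alternative, 26 moved by more than the spread between replicates. The 16 named genes kept their sign in all 22 settings, and 11 gene results passed the threshold, each with DESeq2. Signs were not stable for Inpp1, Gsk3a, Ctnnb1 and Axin2. Depth limits genes such as Peg12 and Gm9531, which have few reads.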

Other observations

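Some genes outside the naming rule were chosen after their values were seen. Gm9531, a gene model on chromosome 9, was listed at 0 in all 4 HT lithium males, against 28.8, 26.7 and 51.5 normalised read counts in HT vehicle males. In HT fluoxetine males it had 33.3, 0, 84.1 and 0, and in females it was at 0 in all 3 HT lithium libraries, against 0, 0 and 41.3 in HT vehicle libraries. The limma fit over the 7 male libraries alone called it with an adjusted p of 0.00437, and the fit over all 29 libraries did not.

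Peg12, an imprinted gene on chromosome 7, had 0, 8.73, 1.13 and 0 normalised read counts in HT lithium males, against 4.79, 8.54 and 5.72 in HT vehicle males and 6.66, 6.1, 8.01 and 6.3 in HT fluoxetine males. In females it had 3.76, 11.2 and 5.31 in HT lithium libraries, against 3.52, 5.77 and 5.44 in HT vehicle libraries. Gm28661, a gene model with a mean of 1.517e+05 normalised read counts over the 7 male libraries, had a log2 difference of 0.68 with DESeq2 and an adjusted p of 0.031, against an adjusted p of 0.29 with limma.

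Beside Dnajc3, Pdia3 and Hspa5 of the endoplasmic reticulum list, the genes that DESeq2 called higher in HT lithium males included Ccnd2, Homer1, Spred1, Cd200, Picalm, Slc30a9 and Amd1. Those it called lower were Polr2a, Fos, Aldh1l1, Endov and Rps12.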
